A study of Homo sapiens with 4 samples.

Results

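Transcripts of the proteasome genes were described in 4 RNA-seq libraries of human multiple myeloma cells. The set held every gene with a symbol of the PSMA, PSMB, PSMC, PSMD, PSME, PSMF or PSMG families followed only by digits, together with POMP and NFE2L1. It came to 50 genes of the 60612 that were listed. H929 and KMS28BM are established myeloma lines, a cancer of plasma cells, and each gave 1 library labelled after sorting on a microfluidic chip and 1 labelled before it. No drug, genotype or time point was given for any library, so line and sorting label were the properties that set the groups apart. The series title appears to name as unsorted the cells whose sample labels read after sorting. The sample labels were followed, and every difference with sorting given here would be inverted under the title's reading. With 1 library per group, within-line differences carry no error estimate, and nothing in the labels says whether cells were cultured separately.

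The proteasome degrades proteins tagged with ubiquitin. Its core particle is a barrel of outer alpha rings (PSMA) and inner beta rings (PSMB), and the catalytic sites lie in PSMB5, PSMB6 and PSMB7. Interferon induces PSMB8, PSMB9 and PSMB10, which take the places of PSMB5, PSMB6 and PSMB7 in newly made particles to form the immunoproteasome. A regulatory particle, with a ring of ATPases (PSMC) and further subunits (PSMD), caps the core and unfolds substrates, and other activators (PSME) can cap it instead. Plasma cells make large amounts of antibody and myeloma is treated with inhibitors of PSMB5. When proteasome activity drops, the transcription factor encoded by NFE2L1 escapes degradation and switches on subunit genes through antioxidant response elements.

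Sequence elements tied to interferon and to NFE2L1 were searched for in the promoters. RefSeq promoter windows of GRCh38.p14, which run from 250 bases before to 50 after the annotated start, were at hand for 44 of the 50 genes. The 5 inducible genes below are shown because immunoproteasome and constitutive subunits are contrasted throughout, and PSMD3 and PSMD12 because they had the highest and lowest H929 ratios among the regulatory subunits whose windows held the antioxidant element given here. Each sequence covers 180 bases before to 25 after the start and reads along the gene. In PSMB8, PSMB10, PSME1 and PSME2 the capitals mark the interferon-stimulated response element core GAAANNGAAA on either strand. In PSMB9, PSMD3 and PSMD12 they mark the antioxidant response element core TGACNNNGC on either strand. The sequences of PSME1 and PSME2 also hold TGACNNNGC, which is left unmarked there.
PSMB8, chr6:32844023-32844227, minus strand: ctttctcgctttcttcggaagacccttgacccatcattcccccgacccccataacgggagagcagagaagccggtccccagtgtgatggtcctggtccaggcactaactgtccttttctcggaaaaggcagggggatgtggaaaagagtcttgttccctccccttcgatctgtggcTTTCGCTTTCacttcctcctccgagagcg
PSMB9, chr6:32854012-32854216, plus strand: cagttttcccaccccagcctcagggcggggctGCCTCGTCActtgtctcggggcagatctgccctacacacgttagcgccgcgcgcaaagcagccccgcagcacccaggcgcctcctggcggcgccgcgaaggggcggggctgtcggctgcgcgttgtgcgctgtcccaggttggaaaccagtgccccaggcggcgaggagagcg
PSMB10, chr16:67936826-67937030, minus strand: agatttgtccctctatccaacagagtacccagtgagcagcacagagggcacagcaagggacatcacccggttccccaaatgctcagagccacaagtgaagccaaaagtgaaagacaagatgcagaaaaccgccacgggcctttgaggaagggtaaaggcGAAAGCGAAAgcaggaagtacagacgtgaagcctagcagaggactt
PSME1, chr14:24136014-24136218, plus strand: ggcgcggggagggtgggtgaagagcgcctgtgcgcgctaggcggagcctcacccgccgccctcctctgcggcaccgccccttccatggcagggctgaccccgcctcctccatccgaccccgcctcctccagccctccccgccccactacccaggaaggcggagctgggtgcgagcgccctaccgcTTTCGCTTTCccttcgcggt
PSME2, chr14:24146586-24146790, minus strand: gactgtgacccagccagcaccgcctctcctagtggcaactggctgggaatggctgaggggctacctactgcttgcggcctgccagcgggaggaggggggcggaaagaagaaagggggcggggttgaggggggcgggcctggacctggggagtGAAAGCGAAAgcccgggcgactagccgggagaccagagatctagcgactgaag
PSMD3, chr17:39980627-39980831, plus strand: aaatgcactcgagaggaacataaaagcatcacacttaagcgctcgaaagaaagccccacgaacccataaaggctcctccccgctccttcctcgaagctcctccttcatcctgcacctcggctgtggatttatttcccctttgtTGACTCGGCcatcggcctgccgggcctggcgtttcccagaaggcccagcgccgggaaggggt
PSMD12, chr17:67366553-67366757, minus strand: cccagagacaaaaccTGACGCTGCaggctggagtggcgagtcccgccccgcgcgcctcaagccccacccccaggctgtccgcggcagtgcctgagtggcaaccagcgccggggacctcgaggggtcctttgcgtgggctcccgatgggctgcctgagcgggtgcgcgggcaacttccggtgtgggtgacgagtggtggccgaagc

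The letters matched in PSMB8, PSMB10, PSME1 and PSME2 were the same, GAAAGCGAAA, in the orientation of the motif. That run was read from these 4 promoters, so their matches were fixed in advance and the count does not measure enrichment. It was found in the windows of 34 of 27305 genes (0.125%), and 5 of them were proteasome genes, the fifth being the core chaperone PSMG4. The looser GAAANNGAAA lay in windows of 7 of 44 proteasome genes (15.9%), against 4.38% of all genes. TGACNNNGC lay in 15 of 44 (34.1%), against 16.1% of all genes, and the CCAAT box in 21 of 44 (47.7%), against 39.7%. The motifs were chosen with the values below known, the motifs may overlap, and a match describes letters and not a bound site. Measured genes with TGACNNNGC had a median log2 ratio of 0.16 in H929 and -0.15 in KMS28BM, and those without it 0.18 and 0.08. For GAAANNGAAA the medians with the motif were 0.23 and -0.16, and without it 0.13 and 0.12.

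All 6 plasma cell markers checked (SDC1, TNFRSF17, PRDM1, XBP1, IRF4 and CD38) stood at 6.89 FPKM or more in every library, FPKM being fragment counts divided by transcript length and by library total. In H929 IRF4 was at 55.1 (after) and 259.6 (before) FPKM, CD38 at 6.89 (after) and 16.1 (before) FPKM, PRDM1 at 51.5 (after) and 80.2 (before) FPKM and XBP1 at 191 (after) and 305 (before) FPKM. TNFRSF17 was at 25.9 (after) and 33.9 (before) FPKM and SDC1 at 76.0 (after) and 73.0 (before) FPKM. Thus 5 of the 6 stood lower after sorting in H929, where 6462 of 11083 genes did. In KMS28BM all of them but SDC1 stood higher after sorting, where 6221 of 10472 genes did. IRF4 in the H929 library labelled before sorting stood apart from the other three, which lay between 35.0 and 55.1 FPKM. The part of these markers in the proteasome ratios was not tested. CD3E, CD14, PECAM1, COL1A1 and EPCAM, which mark T cells, monocytes, endothelium, fibroblasts and epithelium, reached at most 0.30 FPKM. Depth was estimated at 21.2 to 24.8 M (mega) fragments per library. Of the 50 genes, 47 stood at 1 FPKM or more in all libraries. PSME4 did so in all but one, at 0.980 FPKM in the KMS28BM library labelled before sorting. PSMA8 and PSMB11, subunits of testis and thymus, stayed under 1 FPKM in every library, so 48 genes entered the ratios. The least covered of these rested on an estimated 147 fragments, and the median value on 1723.

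Levels within the complex were far from equal, as the plot of levels by library shows. Every constitutive beta subunit stood between 46.6 and 354 FPKM. Among the alpha subunits, which share the barrel in equal numbers, PSMA7 was at 146 (after) and 110 (before) FPKM in H929 and 199.6 (after) and 202 (before) FPKM in KMS28BM. The other 6 alpha genes lay between 8.21 and 40.1 FPKM in all libraries. The highest alpha gene exceeded the lowest 17.8-fold (after) and 11.4-fold (before) in H929 and 13.8-fold (after) and 20.5-fold (before) in KMS28BM. The same quotient over the beta genes was 5.54 (after) and 5.37 (before) in H929 and 4.25 (after) and 4.83 (before) in KMS28BM. In the ATPase ring it was 46.3 (after) and 28.4 (before) in H929 and 19.7 (after) and 39.5 (before) in KMS28BM, with PSMC3 on top and PSMC6 lowest in each library. PSMB4, an inner ring subunit without a catalytic site, had the highest level of all the genes in each of the 4 libraries, at 354 (after) and 250.2 (before) FPKM in H929 and 246 (after) and 317 (before) FPKM in KMS28BM. The order of levels was much the same in the paired libraries, with a Spearman correlation across the 48 genes of 0.98 in H929 and 0.95 in KMS28BM. The proteasome genes made up 0.786% (after) and 0.597% (before) of the summed FPKM in H929, and 0.7999% (after) and 0.836% (before) in KMS28BM.

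**Figure D1:**
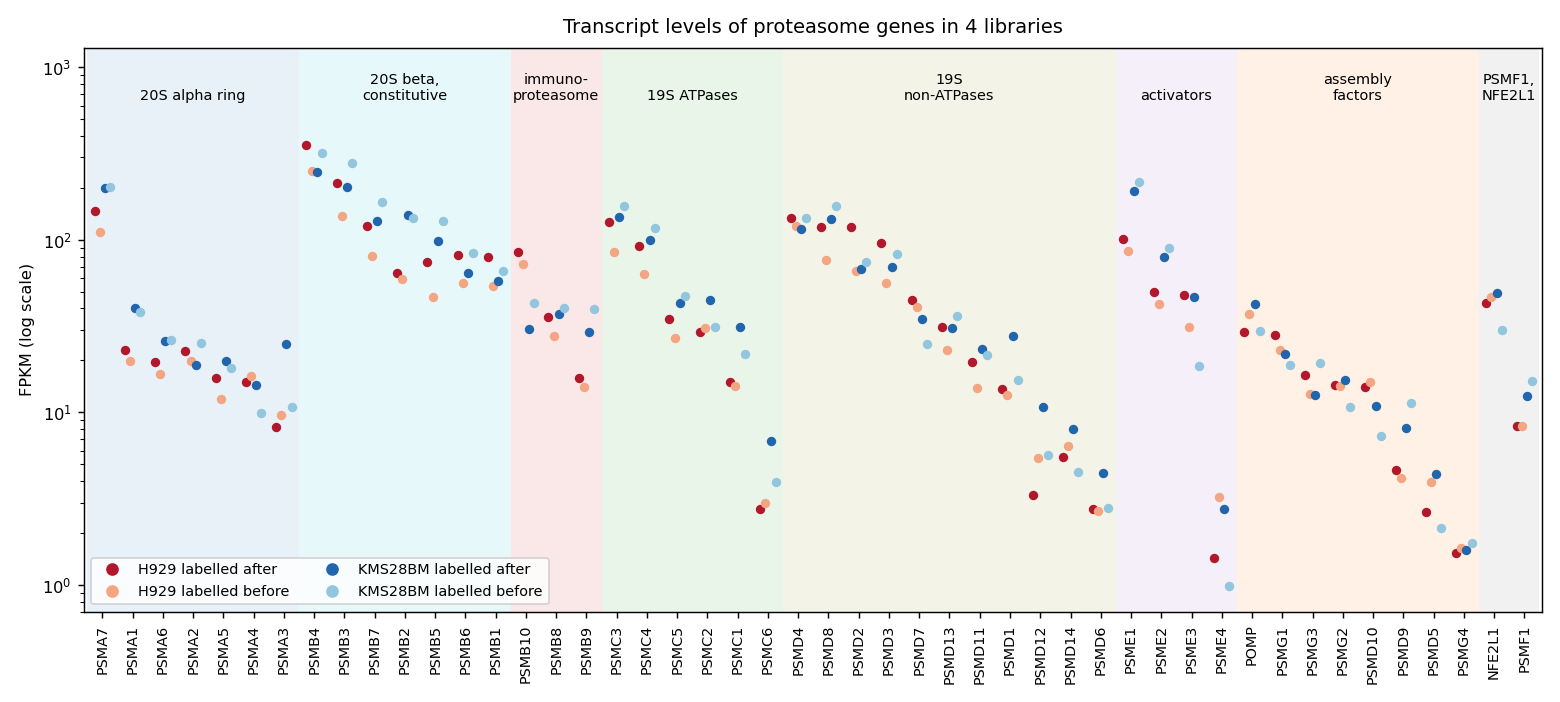
FPKM (log axis) of the 48 measured genes in the 4 libraries, 1 point per library, grouped by role and sorted by mean level within a role. The alpha ring spans a wider range than the constitutive beta ring, PSMB9 is lower and PSMB10 higher in H929 than in KMS28BM, and red points (H929 labelled after) lie above orange ones across the beta ring. There the dark blue points (KMS28BM labelled after) lie under the light blue ones except for PSMB2.

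The first comparison set the H929 library labelled after sorting against that labelled before. Most proteasome genes stood slightly higher after sorting. The constitutive beta genes had the highest median of any role, and the assembly factors lay around 0. In bulk RNA, more RNA per cell and a different mix of cells cannot be told apart. Ratios are log2 of FPKM plus 1, which understates changes of low genes. The median over the 48 genes was 0.21, against -0.11 over all genes, with 36 ratios above 0 and 12 below. Of all genes 4621 lay above 0 and 6462 below. PSME3, PSMD8, PSMB3, PSMB5, PSMD3 and PSMD2 were 1.5-fold or more higher, 6 of 48, where 7.40% of all genes were. PSME4 alone was 1.5-fold or more lower, where 18.8% of all genes were. Under a trimmed-mean scaling of the libraries 19 were higher and 1 lower, where 16.3% and 12.1% of all genes were. At 2-fold, 0 genes were higher and 0 lower, where 1.59% and 5.17% of all genes were.

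PSMD2 (ENSG00000175166), a scaffold of the regulatory particle that binds ubiquitin-like domains, was at 119 FPKM in H929 labelled after sorting and 66.4 FPKM in that labelled before, a log2 ratio of 0.83. In KMS28BM it was at 68.0 (after) and 74.8 (before) FPKM. PSMD3, a lid subunit of the regulatory particle, was at 95.7 (after) and 56.1 (before) FPKM in H929 (log2 ratio 0.76) and at 69.97 (after) and 82.7 (before) FPKM in KMS28BM. For both genes the H929 library labelled after sorting was the highest of the 4 and the one labelled before was the lowest. PSMB3, a beta subunit without a catalytic site, was at 213 (after) and 137 (before) FPKM in H929, and PSMB5 at 74.1 (after) and 46.6 (before) FPKM. At the other end, PSMD12, a lid subunit, was at 3.32 FPKM after sorting and 5.42 FPKM before, a log2 ratio of -0.57. POMP, which helps the core mature and is consumed by it, was at 29.1 (after) and 37.3 (before) FPKM. PSMA3, an alpha subunit, was at 8.21 (after) and 9.67 (before) FPKM, and PSMD14, the deubiquitinase that strips ubiquitin from substrates, at 5.50 (after) and 6.37 (before) FPKM. With the trend in GC content and length described below removed, none of these 4 stayed below 0, and the log2 ratios were 0.01 for PSMD12, 0.13 for POMP, 0.17 for PSMA3 and 0.65 for PSMD14.

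By role, all 7 constitutive beta genes had H929 ratios above 0, with a median of 0.57, and their summed level was 986 FPKM after sorting against 683 FPKM before. The 7 alpha genes had a median of 0.20, 5 of them above 0, and a sum of 251 FPKM after sorting against 205 FPKM before. The 17 subunits of the regulatory particle had a median of 0.17, 13 above 0, and a sum of 889 FPKM after sorting against 646 FPKM before. The 3 immunoproteasome genes lay above 0 with a median of 0.23. Of all genes in H929, 4621 of 11083 lay above 0. The 8 assembly factors had a median of -0.02, 4 of them above 0, and that median became 0.21 under trimmed-mean scaling and 0.08 with the trend in GC content and length removed. The other 4 medians stayed above 0 under both, although PSMB10 turned from 0.23 to -0.12 with the trend removed.

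The second comparison was the same in KMS28BM. There the constitutive beta genes other than PSMB2 and the immunoproteasome genes stood slightly lower in the library labelled after sorting. Of the genes of other roles, 9 stood 1.5-fold or more higher, a share of the 48 near that of all genes. The median over the 48 genes was -0.05, against 0.12 over all genes, with 22 ratios above 0 and 26 below. Of all genes 6221 lay above 0 and 4251 below. PSMC6, NFE2L1, PSMD14, PSMD5, PSMD12, PSMD1, PSME4, PSMA3 and PSME3 were 1.5-fold or more higher, 9 of 48, where 18.4% of all genes were. With the GC and length trend described below removed, 3 were, where 4.84% of all genes were. None of the 48 was 1.5-fold or more lower, where 4.31% of all genes were. Under trimmed-mean scaling the split was 6 higher and 10 lower, where 10.3% and 11.6% of all genes were. At 2-fold, PSME3 and PSMA3 were higher, where 4.13% of all genes were, and 0 were lower, where 1.12% of all genes were.

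PSMA3 (ENSG00000100567) was at 25.02 FPKM in KMS28BM labelled after sorting and 10.7 FPKM before, a log2 ratio of 1.15, so a single library stood apart from the other three. PSMD1, a scaffold of the regulatory particle, was at 27.8 (after) and 15.4 (before) FPKM, a log2 ratio of 0.81. PSMD12 was at 10.7 (after) and 5.70 (before) FPKM. PSMG3, a chaperone of alpha ring assembly, was at 12.6 FPKM after sorting and 19.4 FPKM before, a log2 ratio of -0.58 and the lowest in this line. PSMB3 was at 203 (after) and 279 (before) FPKM, and PSMD9, a chaperone of the ATPase ring, at 8.09 (after) and 11.3 (before) FPKM, though it shared 19.5% of its 50-base words with other genes. PSMA2 was at 22.8 (after) and 19.96 (before) FPKM in H929 and 18.9 (after) and 25.4 (before) FPKM in KMS28BM. The gene AC010132.3, which shares words with PSMA2, was listed at 26.0 (after) and 0.0686 (before) FPKM in KMS28BM, so the level of PSMA2 there is uncertain, and the division of reads between the genes was not tested. PSMA1, PSMA6 and PSMC1 also shared between 15.1% and 20.3% of their words with other genes.

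By role, the constitutive beta genes had a KMS28BM median of -0.37, 6 of 7 below 0, with a sum of 936 FPKM after sorting against 1175 FPKM before. The alpha genes had a median of 0.08, 4 of 7 above 0, with a sum of 344 FPKM after sorting against 331 FPKM before. The regulatory particle had a median of 0.11, 9 of 17 above 0. As deposited the ATPases split evenly, PSMC1, PSMC2 and PSMC6 lying above 0 and PSMC3, PSMC4 and PSMC5 below. The assembly factors had a median of 0.35, 5 of 8 above 0. Of all genes in KMS28BM, 6221 of 10472 lay above 0, so the alpha, regulatory and assembly counts were near that share. Under trimmed-mean scaling the alpha and regulatory medians turned to -0.15 and -0.12, and with the GC and length trend removed to -0.11 and -0.07, when that of the assembly factors was -0.03. The constitutive beta median stayed below 0 under both, at -0.60 and -0.32. The immunoproteasome median was -0.43 from the FPKM as deposited, -0.66 under trimmed-mean scaling and -0.10 with the trend removed.

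The lines gave ratios that often pointed opposite ways. Of 48 genes, 36 had opposite signs (75.0%), against 69.1% of all genes measured in both lines, so the share was near that of all genes. In 25 the ratio was above 0 in H929 and below 0 in KMS28BM, and in 11 the reverse held. Another 11 lay above 0 in both lines and 1, the chaperone PSMG4, below 0 in both. Across the 48 genes the Spearman correlation of the ratios was -0.62, and -0.57 across 8064 protein-coding genes, and with the trend in GC content and length removed they were -0.51 and -0.28. Genes are not independent replicates and share their 4 libraries. The plot of the 2 ratios shows 6 of the 7 constitutive beta genes at the lower right, and PSMB2 near the origin.

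**Figure D2:**
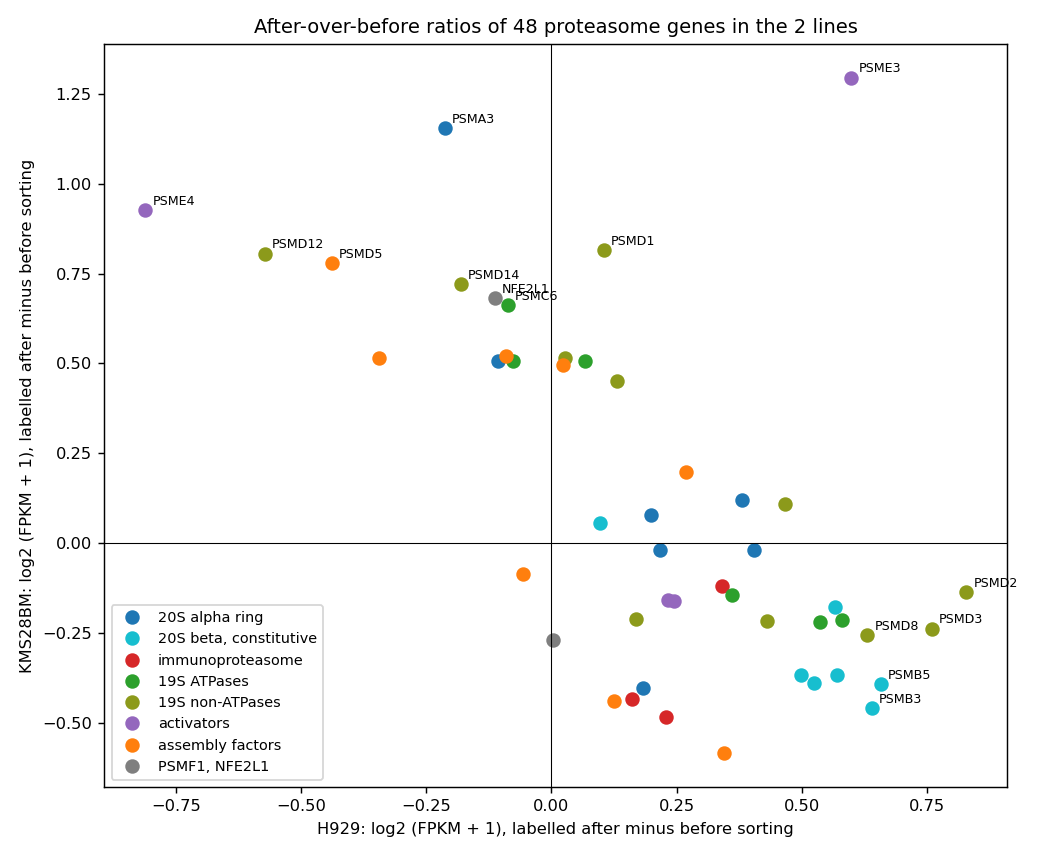
Difference in log2 of FPKM plus 1 between libraries labelled after and before sorting, in H929 (x axis) and KMS28BM (y axis), 1 point per gene, coloured by role, with genes at 1.5-fold or more in a line named. Most points run from the upper left (PSME4, PSMA3, PSMD12) to the lower right (PSMD2, PSMD3, PSMB3, PSMB5), and PSME3 stands apart at the upper right with 0.60 and 1.29.

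The catalytic subunits allow a contrast within each library that needs no scaling between libraries. The immunoproteasome made up a minority of catalytic transcripts everywhere, and its makeup differed between the lines more than with sorting. PSMB8 (ENSG00000204264) was at 35.6 (after) and 27.9 (before) FPKM in H929 and 37.0 (after) and 40.3 (before) FPKM in KMS28BM. PSMB9 (ENSG00000240065) was at 15.8 (after) and 14.0 (before) FPKM in H929 and 29.4 (after) and 39.98 (before) FPKM in KMS28BM. PSMB10 (ENSG00000205220) was at 84.5 (after) and 71.9 (before) FPKM in H929 and 30.4 (after) and 42.9 (before) FPKM in KMS28BM. Thus PSMB9 was lower and PSMB10 higher in both H929 libraries than in both KMS28BM libraries. Of the replaced subunits, PSMB5 (ENSG00000100804) was at 74.1 (after) and 46.6 (before) FPKM in H929 and 98.2 (after) and 129 (before) FPKM in KMS28BM. PSMB6 was at 81.7 (after) and 56.5 (before) FPKM in H929 and 64.3 (after) and 84.4 (before) FPKM in KMS28BM, and these ranges overlapped. PSMB7 was at 119 (after) and 80.1 (before) FPKM in H929 and 129 (after) and 166 (before) FPKM in KMS28BM.

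PSMB10 over PSMB7 was 0.708 (after) and 0.898 (before) in H929 and 0.236 (after) and 0.258 (before) in KMS28BM. PSMB9 over PSMB6 went the other way between the lines, with 0.194 (after) and 0.249 (before) in H929 against 0.457 (after) and 0.474 (before) in KMS28BM. PSMB8 over PSMB5 was 0.480 (after) and 0.598 (before) in H929 and 0.377 (after) and 0.312 (before) in KMS28BM. PSMB10 supplied 62.2% (after) and 63.2% (before) of the immunoproteasome sum in H929 and 31.4% (after) and 34.8% (before) in KMS28BM, where the 3 genes were nearly level. Together the 3 made up 33.1% (after) and 38.3% (before) of the FPKM of the 6 catalytic genes in H929, and 24.9% (after) and 24.5% (before) in KMS28BM. Without PSMB7 and PSMB10 the shares were 24.8% (after) and 28.9% (before) in H929 and 29.0% (after) and 27.3% (before) in KMS28BM, so the order of the lines rested on that pair. PSMB10 shares 27.5% of its words with other genes, most with the gene AC040162.1, which was listed at 1.38 (after) and 1.02 (before) FPKM in H929 and 0.876 (after) and 0.740 (before) FPKM in KMS28BM. PSMB8-AS1, annotated antisense to PSMB8, was at 5.43 (after) and 7.47 (before) FPKM in H929 and 7.64 (after) and 8.36 (before) FPKM in KMS28BM, and the sources used here do not say whether counting used strand.

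In H929 the inducible genes stood higher after sorting by less than the constitutive ones. Their mean log2 ratio was 0.24, against 0.58 for PSMB5, PSMB6 and PSMB7, a difference of -0.34, and all 3 pairs had a lower quotient in the library labelled after sorting. In KMS28BM the means were -0.35 and -0.38, a difference of 0.04. That small difference became -0.04 when the trend with GC content and length, described below, was removed. The H929 difference was then -0.26, between means of 0.12 and 0.38. In H929 PSMB9 (0.27) then no longer lay below PSMB6 (0.25), while PSMB8 and PSMB10 stayed below PSMB5 and PSMB7.

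**Figure D3:**
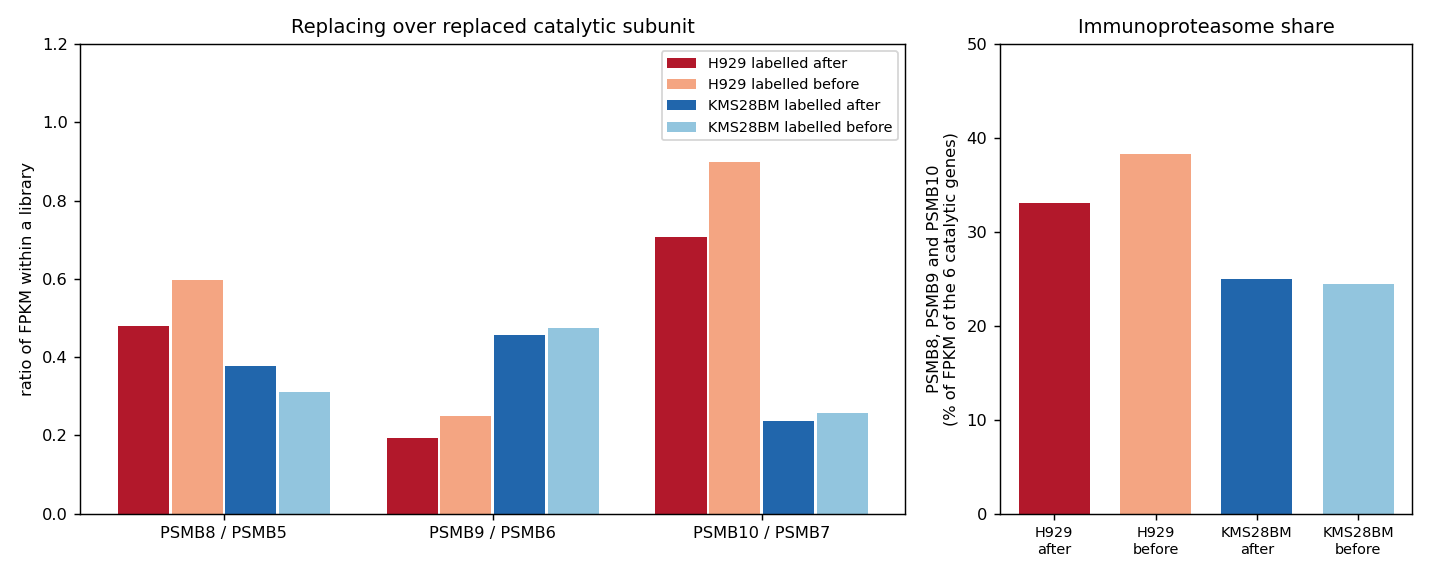
Left, FPKM of each immunoproteasome subunit over the subunit it replaces, within each of 4 libraries. Right, the 3 immunoproteasome genes as a percent of the FPKM of all 6 catalytic genes. Bars start at 0, and there is 1 library per bar and no error bar. PSMB10 over PSMB7 is higher in both H929 bars (0.708 after, 0.898 before) than in KMS28BM (0.236 after, 0.258 before), and PSMB9 over PSMB6 is lower.

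Of the activators, PSME1 and PSME2 build the interferon-inducible cap that favours peptide release. PSME1 was at 102 (after) and 85.6 (before) FPKM in H929 and 193 (after) and 216 (before) FPKM in KMS28BM, and PSME2 at 50.1 (after) and 42.5 (before) FPKM in H929 and 79.8 (after) and 89.2 (before) FPKM in KMS28BM. Both were lower in both H929 libraries, as PSMB9 was. PSME1 over PSME2 was nearly constant within a line, with 2.03 (after) and 2.01 (before) in H929 against 2.42 (after) and 2.42 (before) in KMS28BM.

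PSME3 (ENSG00000131467) encodes a nuclear activator that caps the core without ATP. It was at 47.6 FPKM in H929 labelled after sorting and 31.1 FPKM before, and at 46.8 FPKM in KMS28BM labelled after sorting and 18.5 FPKM before. The 2 libraries labelled after sorting were nearly level and both lay above the 2 labelled before. The log2 ratios were 0.60 in H929 and 1.29 in KMS28BM, and 0.68 and 1.09 with the GC and length trend removed. It shared 1.01% of its words with other genes. PSME3 was the only gene of the set that was 1.5-fold or more higher in both lines, 1 of 48, where 0.508% of all genes were. PSME4, a large nuclear activator without ATPase, had opposite ratios, at 1.42 (after) and 3.25 (before) FPKM in H929 (log2 ratio -0.81) and 2.76 (after) and 0.980 (before) FPKM in KMS28BM (0.93).

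NFE2L1 (ENSG00000082641) was at 43.0 (after) and 46.6 (before) FPKM in H929 and 49.0 (after) and 30.2 (before) FPKM in KMS28BM. Its log2 ratio was -0.11 in H929 and 0.68 in KMS28BM, and -0.12 and 0.68 with the trend removed. In KMS28BM 6221 of 10472 genes lay above 0. Above 0 there were 9 of 17 regulatory subunits and 1 of 7 constitutive beta genes, and with the trend removed 6 of 17 and 0 of 7. The part of NFE2L1 in the ratios of subunit genes was not tested. NFE2L1 acts mainly through control of its protein, which was not measured. Among the core chaperones, POMP was at 42.5 (after) and 29.5 (before) FPKM in KMS28BM, a log2 ratio of 0.51 that became -0.03 with the trend removed. PSMG1 and PSMG2, which pair to start the alpha ring, had H929 ratios of 0.27 and 0.02 and KMS28BM ratios of 0.20 and 0.49. With the trend removed PSMG1 turned to -0.03 in KMS28BM and PSMG2 to -0.14 in H929. PSMF1, an inhibitor of the core in vitro, was at 8.33 (after) and 8.31 (before) FPKM in H929 and 12.4 (after) and 15.1 (before) FPKM in KMS28BM.

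Partners of the proteasome outside the symbol rule were counted as well, in a list of 28 ubiquitin genes, shuttle receptors, deubiquitinases and NFE2L1 processing factors. DDI1, a testis protease, was at the floor in every library and 27 were measured. In H929 their median ratio was -0.08 (0.14 under trimmed-mean scaling and 0.11 with the trend removed). Of the 27, 1 gene was 1.5-fold or more higher and 5 lower, where 7.40% and 18.8% of all genes were. The share of lower genes was thus near that of all genes. ADRM1, a ubiquitin receptor of the regulatory particle, was at 145 (after) and 97.8 (before) FPKM. NFE2L2, the relative of NFE2L1 that responds to oxidants, was lowest at 1.27 (after) and 4.29 (before) FPKM, and next lowest was ECPAS, a proteasome adaptor, at 4.06 (after) and 10.2 (before) FPKM. In KMS28BM the median was 0.29 (0.05 and -0.02 in the same order), with 8 of 27 genes 1.5-fold or more higher and 0 lower, where 18.4% and 4.31% of all genes were. UCHL5, a deubiquitinase of the regulatory particle, was highest there at 3.50 (after) and 1.36 (before) FPKM, and DDI2, the protease that activates the NFE2L1 protein, was next at 1.90 (after) and 0.521 (before) FPKM. ADRM1 was lowest at 85.6 (after) and 120.2 (before) FPKM, and ZFAND2A, a heat-inducible proteasome partner, stood at 4.47 (after) and 5.83 (before) FPKM.

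Between the lines, both H929 libraries lay below both KMS28BM libraries for 25 of 48 genes, where 29.0% of all genes did, and above for 5, where 36.7% did. The remaining 18 overlapped. These orders are descriptions, since no source used here says whether the tables of the 2 lines share a normalization. All 6 ATPases lay below, although PSMC2 did so narrowly, with 31.0 FPKM in H929 labelled before sorting and 31.4 FPKM in KMS28BM labelled before. Of the alpha genes 5 of 7 lay below, and of the constitutive beta genes 3 of 7. The genes with H929 above were PSMG1, PSMA4, PSMD7, PSMD10 and PSMB10. The widest log2 ratios of mean FPKM plus 1, H929 over KMS28BM, were those of PSMB9 (-1.16), PSMB2 (-1.13) and PSME1 (-1.12) on one side and PSMB10 (1.07) on the other. PSMB2, a beta subunit without a catalytic site, was at 63.8 (after) and 59.6 (before) FPKM in H929 and 139 (after) and 133 (before) FPKM in KMS28BM, nearly unmoved by the sorting label, although its ratios were 0.44 in H929 and -0.42 in KMS28BM with the trend removed.

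Ratios within a line moved with the base composition of the transcripts. Over protein-coding genes a cubic trend in GC content and length accounted for 29.5% of the variance of the ratios in H929 and 48.4% in KMS28BM. Among the 48 genes, Spearman correlations of ratio and GC content were 0.58 in H929 and -0.58 in KMS28BM, and of ratio and mean level 0.71 and -0.51. The 16 genes of lowest GC content (32.0% to 43.6%) had median ratios of -0.09 in H929 and 0.52 in KMS28BM. The 16 in the middle had medians of 0.25 and -0.15, and the 16 of highest GC content 0.38 and -0.21. With the trend removed the median over the 48 was 0.30 in H929 and -0.09 in KMS28BM. Then PSMD6, PSMD11, PSMD14, PSMA2, PSME3, PSMD3, PSMD2, PSMA6, PSMB1 and PSMA5 were 1.5-fold or more higher in H929 and 0 lower, where 8.41% and 9.55% of all genes were. In KMS28BM PSMA3, NFE2L1 and PSME3 were then higher and PSMA2, PSMA6, PSMB9 and PSMB1 lower, where 4.84% and 4.26% of all genes were. The ratio changed sign for 11 of the 48 genes in H929 and for 13 in KMS28BM. PSMD12 is an example of a gene that lost its ratio, at 0.01 in H929 and 0.13 in KMS28BM with the trend removed, while PSMD2 kept 0.76 in H929. All 7 constitutive beta genes stayed above 0 in H929 and lay below 0 in KMS28BM. The part of GC content, length or library preparation in these ratios was not tested.

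**Figure D4:**
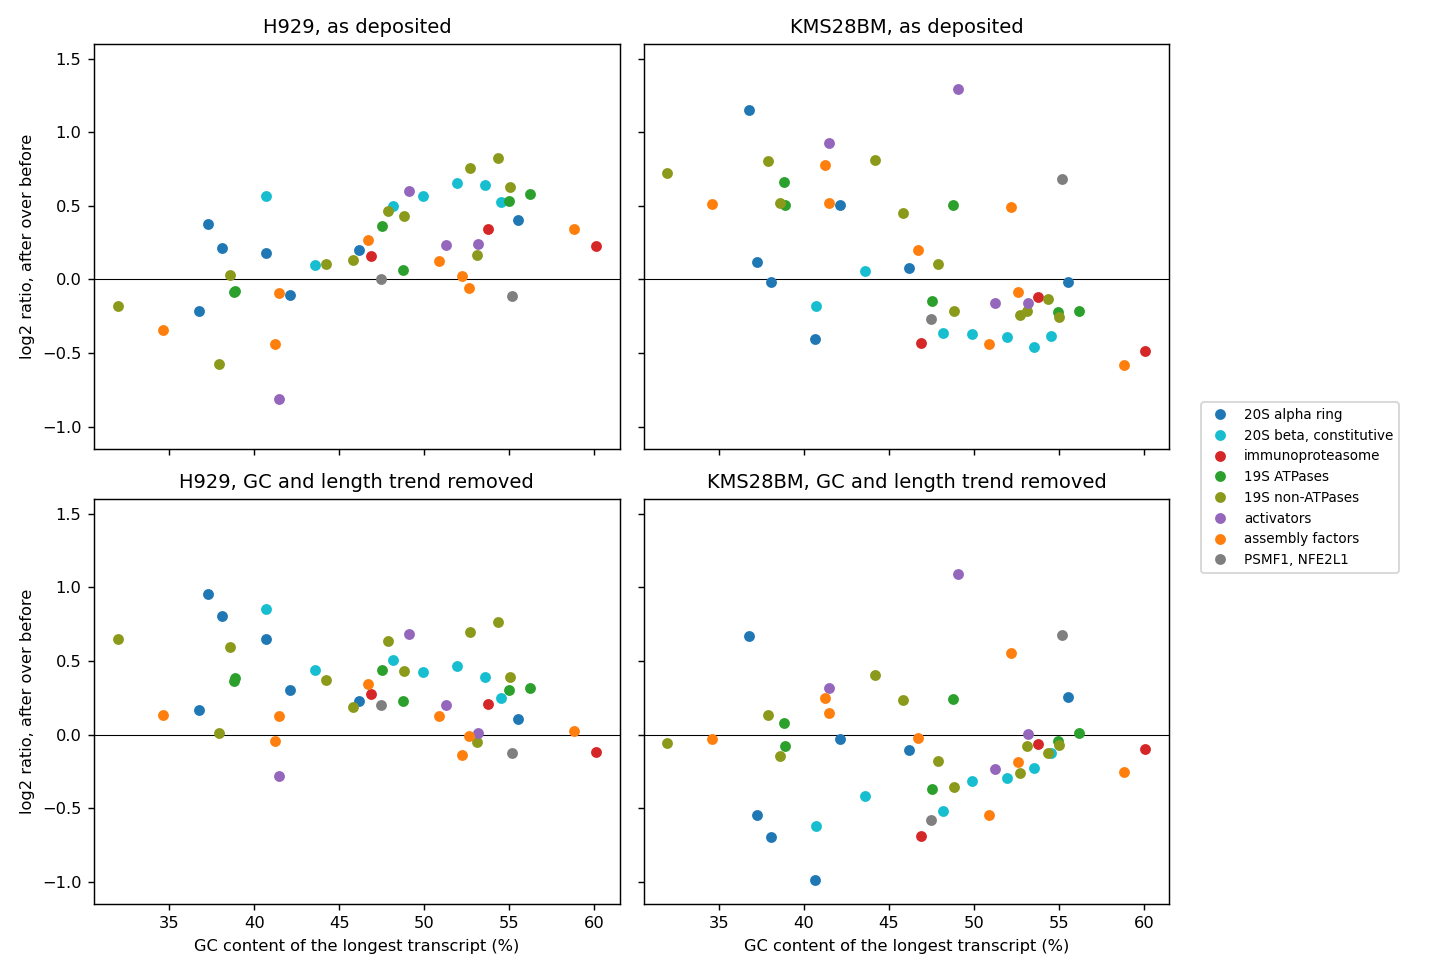
Log2 ratio, labelled after over before sorting, against GC content of the longest annotated transcript for the 48 genes, H929 at left and KMS28BM at right, as deposited (top) and with the trend in GC content and length removed (bottom), coloured by role. Ratios climb with GC content in H929 and descend in KMS28BM at the top, and at the bottom PSME3 (0.68 in H929 and 1.09 in KMS28BM) stays high in both lines.

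The design allowed 1 test, which asked for the same change in H929 and KMS28BM after each line's own level was taken out. In limma with line and sorting as terms and Benjamini-Hochberg adjustment over 12294 genes, 14 genes passed an adjusted p of 0.05 (0.114% of those tested), and 0 of the 48 proteasome genes did. Their lowest adjusted p was 1. PSME3 was the only one with an unadjusted p under 0.05, with a shared log2 change of 0.95 (SE 0.39, limma adjusted p = 1) and higher values in 2 of 2 lines. Over all genes tested 1.5% had an unadjusted p under 0.05. In the authors' deposited table PSME3 had p-values of 0.243 in H929 and 0.0820 in KMS28BM, and the lowest p-values of the set were those of PSME4, 0.117 in H929 and 0.0503 in KMS28BM, with q-values of 0.844 and 0.998. No source used here names the test behind the authors' deposited table.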

How the data were processed

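RNA was measured in 4 libraries, 1 per line and sorting label. Per the labels' protocols, polyadenylated RNA was selected from Trizol extracts, fragmented and sequenced in pairs on a NovaSeq. The deposited values are FPKM, per the file headers, with a separate table for each line. The deposited ratio (fold) and log2 columns are, per the file headers, the fold of the A column over B, and the p-value and q-value columns are the authors' own, with no test named. The tools named are StringTie 1.3.0, HISAT2 2.0 and Bowtie 0.12.2, per the submitters' processing notes, which name a mouse build beside human gene IDs. No source used here gives the human build, and coordinates come only from RefSeq promoter windows of GRCh38.p14.

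A log2 ratio with a pseudocount of 1 was taken where either library of a line had at least 1 FPKM, and ratios were counted at 1.5-fold and 2-fold. Products of FPKM and length pile up at the worth of 1 fragment (within 1%), which gave the depth. Length, GC content and shared 50-base words came from GENCODE transcripts, and 58394 of 60612 IDs matched. The trend was a cubic in GC content and log2 length, fitted per line on protein-coding genes. The shared change was tested in R 4.3.3 with limma 3.58.1, on the same log2 scale, and the moderated spread followed level. The test was run on simulated data with independent noise and planted changes larger than any shared change of the set. In the real libraries the lines often went opposite ways. The run therefore does not tell whether changes of the size seen here could be found. No error is attached to ratios, since there was 1 library per group.

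The members, lists and alternatives were chosen with earlier results of these data known. Values are given for the catalytic subunits and their replacements, PSME1, PSME2, NFE2L1, POMP and the 4 highest and 4 lowest ratios per line among members at 5 FPKM or more in a library. For partners the 2 highest and 2 lowest per line are given, apart from 1 gene not reported here. Other genes given with values, such as PSMA7, PSMA2, PSMB2, PSMB4, PSMC2, PSME4 and PSMF1, were chosen after their values were seen. Of the 50 genes, 6 shared over 10% of their words with other genes. Python 3.11.15 did the rest, with SciPy 1.17.1, pandas 2.3.3, matplotlib 3.10.9 and numpy 2.4.6.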

Additional observations from a re-analysis of the deposited data

Results flagged for a closer look

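A set of 10 genes had log2 ratios of opposite sign and at least 0.3 in size in the 2 lines. With 1 library per group these differences were not tested, and they made up 20.8% of the 48 genes, against 28.9% of all genes. Of them, 5 were constitutive beta subunits, higher after sorting in H929 and lower in KMS28BM. The log2 ratios were 0.64 in H929 and -0.46 in KMS28BM for PSMB3. They were 0.50 and -0.37 for PSMB4, and 0.66 and -0.39 for PSMB5. For PSMB6 they were 0.52 and -0.39, and for PSMB7 0.57 and -0.37. The chaperone PSMG3 had 0.35 in H929 and -0.58 in KMS28BM. The reverse order was seen in POMP (-0.35 in H929 and 0.51 in KMS28BM) and PSMD12 (-0.57 and 0.81). It was also seen in the chaperone PSMD5 (-0.44 and 0.78) and the activator PSME4 (-0.81 and 0.93).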

How the results depend on the processing

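The main setting took the FPKM as deposited, with a pseudocount of 1, a filter of 1 FPKM and a 1.5-fold threshold. Its ratios are not those of the authors' deposited log2 column. That column holds -1.19 for PSME4 and -0.71 for PSMD12 in H929, for example. The alternatives were a pseudocount of 0.1 or 5, a filter of 5 FPKM or none, median centring, trimmed-mean scaling, removal of the GC and length trend, and a 2-fold threshold. Of the values recomputed, 41 moved by at most 0.1 (log2), or 1.5 times for counts. Another 22 were counted as moved. These passed those limits or were the immunoproteasome share of a library, for which no limit was set. Trimmed-mean scaling gave an all-gene median of 0.10 in place of -0.11 in H929, and of -0.06 in place of 0.12 in KMS28BM. Under it the proteasome median was 0.45 in H929 and -0.25 in KMS28BM, 19 genes were 1.5-fold or more higher in H929 (16.3% of all genes) and 10 lower in KMS28BM (11.6% of all genes). In H929 the count of higher genes, 6 in the main setting, was 10 with the trend removed and 0 at 2-fold. The H929 count of lower genes, 1 in the main setting, was 2 with a pseudocount of 0.1 or with median centring. It was 0 with a pseudocount of 5, a filter of 5 FPKM, the trend removed or a 2-fold threshold. In KMS28BM the count of higher genes, 9 in the main setting, was 4 with a pseudocount of 5, 3 with the trend removed and 2 at 2-fold. The KMS28BM count of lower genes, 0 in the main setting, was 1 with a pseudocount of 0.1 or median centring and 4 with the trend removed. Leaving out PSMB7 and PSMB10 changed the immunoproteasome share to 24.8% and 28.9% in H929 and 29.0% and 27.3% in KMS28BM, labelled after and before sorting. The cause of these shifts was not tested. In the shared fit 0 proteasome genes passed under each alternative run, while the genes called in all ranged from 4 to 91; limma warned that its moderation is unreliable without a filter. In the main fit PSME3 was the only proteasome gene with an unadjusted limma p under 0.05. The count of such genes was also 1 under each alternative run, except without a filter and under trimmed-mean scaling, where it was 0. Depth was at least 21.2 M fragments per library, and with a single library per group the ratios carry no error estimate.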
